A study of Homo sapiens with 12 samples.

Results

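The 18S and 28S rRNA gene copies described here are the 10 entries RNA18SN1 to RNA18SN5 and RNA28SN1 to RNA28SN5. They were taken by name from the 61163 genes in the count tables. No measured value entered the rule, but it was set with earlier results of these data known. RNA was isolated from HEK293T cells, an established human embryonic kidney line that also makes a viral large T antigen, and sequenced without rRNA depletion. The study compared wild-type cells (HEK WT) with cells in which the HNRNPUL1 gene was knocked out by CRISPR-Cas9 (HEK UL1 KO), and whether the knockout line is 1 clone is not given in the sources used here. Each genotype was split into a nucleolar (NO) and a cytoplasmic-nuclear (CN) fraction. The 4 groups, HEK WT NO, HEK UL1 KO NO, HEK WT CN and HEK UL1 KO CN, had 3 biological replicates each, and no other agent separates them. All p-values below measure the spread between these replicates. The comparisons ask whether the loss of hnRNP UL1 or the fraction changed how much of each rRNA was counted, in which proportion 18S stood to 28S, and how the counts were spread over the copies.

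18S rRNA is the RNA of the small ribosomal subunit, and 28S rRNA is the largest RNA of the large subunit. Both are cut, with 5.8S rRNA, from a single precursor (45S or 47S) that RNA polymerase I makes in the nucleolus, so every transcript carries one of each. The precursor genes lie in long tandem arrays on the short arms of the acrocentric chromosomes, and a genome assembly holds only a few of these nearly identical copies.

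The 10 entries were all matched by symbol to RefSeq genes of GRCh38.p14, from which the positions and sequences below are taken. RNA18SN1, RNA18SN2 and RNA18SN3 lie on the plus strand of chromosome 21, at chr21:8436876-8438744, chr21:8209631-8211499 and chr21:8392666-8394534. RNA18SN4 lies on a piece assigned to chromosome 22 with no set place on it, at chr22_KI270733v1_random:125931-127799. RNA18SN5 lies on a piece with no chromosome, at chrUn_GL000220v1:109078-110946. The 28S copies follow downstream of the 18S copies of the same number, at chr21:8441146-8446211 for RNA28SN1, chr21:8213888-8218941 for RNA28SN2, chr21:8396926-8401980 for RNA28SN3, chr22_KI270733v1_random:130204-135280 for RNA28SN4 and chrUn_GL000220v1:113348-118417 for RNA28SN5. Each 18S copy is 1869 bases long, with 56.1% G and C. The 28S copies are 5054 to 5077 bases long, with 69.2 to 69.5% G and C.

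The 18S copies come in only 2 sequences. RNA18SN1 and RNA18SN5 are identical over their whole length and are called form 1 here, and RNA18SN2, RNA18SN3 and RNA18SN4 are identical and are called form 2. The forms differ by 1 substitution, G60A, counted from 1 at the 5′ end of RNA18SN1, with the base of form 1 first. The stretch from position 30 to 90 is shown because it holds all of the difference between 18S copies, with the base that differs in capitals. For form 1 it is at chr21:8436905-8436965 in RNA18SN1, and for form 2 at chr21:8392695-8392755 in RNA18SN3.
form 1: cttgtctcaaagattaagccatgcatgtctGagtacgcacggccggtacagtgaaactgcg
form 2: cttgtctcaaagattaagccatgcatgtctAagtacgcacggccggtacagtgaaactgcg
Of the 1795 stretches of 75 bases (the read length) in an 18S copy, 1735 (96.7%) are found in all 5 copies and 60 (3.34%) hold the position that differs. No stretch is found in a single copy. In the whole genome, form 1 matched exactly at 3 places and form 2 at 4.

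The 28S copies differ more. Identity between pairs ranged from 99.23% for RNA28SN3 with RNA28SN4 to 99.88% for RNA28SN1 with RNA28SN5, with gaps counted as differences. Of the positions of RNA28SN5, 40 (0.789%) differ in at least 1 other copy. They are clustered, and 36 of 51 consecutive bins of 100 bases hold none. The stretch below, which starts at position 763 or 764, is from one of the clusters and is shown because its length alone separates copies; the bases that RNA28SN3 lacks and those that RNA28SN2 and RNA28SN3 both lack are in capitals. It lies at chr21:8441909-8441999 in RNA28SN1, chr21:8214651-8214735 in RNA28SN2 and chr21:8397688-8397769 in RNA28SN3, and RNA28SN4 and RNA28SN5 have the sequence of RNA28SN1.
RNA28SN1: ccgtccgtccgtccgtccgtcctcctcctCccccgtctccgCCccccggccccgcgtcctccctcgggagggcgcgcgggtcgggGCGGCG
RNA28SN2: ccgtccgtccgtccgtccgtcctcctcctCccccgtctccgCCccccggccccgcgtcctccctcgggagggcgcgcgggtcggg
RNA28SN3: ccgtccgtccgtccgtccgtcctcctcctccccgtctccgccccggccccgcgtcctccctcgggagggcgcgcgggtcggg
Of the stretches of 75 bases in a 28S copy, 3873 are found in all 5 copies, which is 77.4 to 77.8% of each copy. Stretches found in no other copy number 338 (6.76%) in RNA28SN4, 263 (5.28%) in RNA28SN3 and 169 (3.39%) in RNA28SN2, and there are 0 in RNA28SN1 and RNA28SN5. A read from most of either rRNA therefore matches every copy, and a count of 1 copy is not a count of transcripts made from it.

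**Figure D1:**
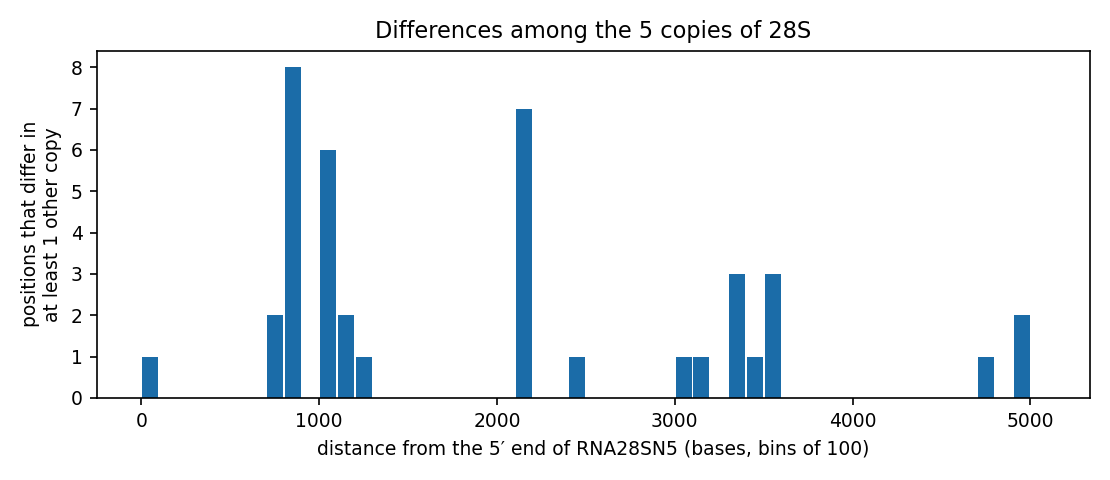
The 40 positions of RNA28SN5 that differ in at least 1 of the other 4 copies of 28S, counted in bins of 100 bases (vertical axis, number of positions; horizontal axis, distance from the 5′ end in bases). The bars are gathered in a few bins, with 8 positions in the highest, and 36 of the 51 bins are empty.

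The libraries held 37141666 to 104040073 counts in all. HNRNPUL1 itself was lower in every HEK UL1 KO library, with a log2 fold change of -2.0 in NO and -1.83 in CN (edgeR's quasi-likelihood test, adjusted p = 0.00649 and 2.12e-07). SNORD3A, the U3 small nucleolar RNA that guides 18S processing, was higher in NO than in CN in both genotypes, with log2 fold changes of 4.41 and 4.05, as the fraction labels say. The 5 genes used to check the cell line were counted in every library, from 37 counts of KRT8 to 2993 of VIM, and 6 genes of adult kidney, blood and liver had 0 to 178 counts. Between NO and CN, 5 of these 6 genes were tested. In HEK WT 5 were higher in NO and in HEK UL1 KO 4, where 66.0% and 66.7% of all genes were called. Of all 37806 genes tested, 14580 and 14479 were called higher. In CN, all 5 cell line genes changed in HEK UL1 KO, where 37.9% of all genes were called. VIM and NEFM were lower (log2 fold changes of -1.47 and -0.54) and KRT8, KRT18 and PAX2 higher (2.30, 1.28 and 0.76). In NO 1 of 5, VIM, was called, where 0.939% of all genes were. The part of these differences in the results below was not tested. Replicate 3 of HEK WT stood apart from the other 2 replicates of HEK WT in both fractions. Its TMM scaling factor was 1.395 against 0.690 and 0.622 in NO and 0.761 against 1.01 and 1.04 in CN. The factors of HEK UL1 KO were 1.336, 1.087 and 1.15 in NO and 1.066, 1.075 and 1.091 in CN. In NO, replicate 3 was thus nearer to HEK UL1 KO than replicates 1 and 2 of HEK WT were. Which HEK WT libraries are atypical was not tested. Values without replicate 3 are given beside the results it moved most.

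The share of each copy was computed as its percentage of the counts of the 5 copies of its class, where 5 equal copies would have 20%. The order of the 18S copies was nearly the same in every library. RNA18SN3 had 25.1% ± 1.23 (SD, n = 12) of the 18S counts, RNA18SN2 23.8% ± 0.915, RNA18SN4 20.7% ± 1.15, RNA18SN1 16.3% ± 1.35 and RNA18SN5 14.0% ± 1.15. RNA18SN5 was the lowest in 12 of 12 libraries and RNA18SN3 the highest in 10, with RNA18SN2 just above it in replicate 1 of HEK UL1 KO in both fractions. Within a library, the highest 18S copy had 1.46 to 2.24 times the count of the lowest. The 95% Wilson interval of a single share, which covers counting error only, was at most 0.0945 percentage points wide.

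The 2 sequences of 18S took separate places in this order. The copies of form 2 had, on average, more counts than those of form 1 in all 12 libraries, and the widest step between neighbours in the order lay between the forms in 7 of them. In HEK WT NO, the mean count of form 2 was 1.52, 2.02 and 1.25 times that of form 1 in replicates 1, 2 and 3, and in HEK UL1 KO NO it was 1.44, 1.53 and 1.76 times. In CN, the ratios were 1.54, 1.51 and 1.53 in HEK WT and 1.38, 1.55 and 1.55 in HEK UL1 KO. The CN libraries thus lay within 1.38 to 1.55, and the NO libraries were spread over 1.25 to 2.02, with both ends in HEK WT. This split was noticed in the values and is given without a test.

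Copies with the same sequence also had different counts. Among the 3 identical copies of form 2, the highest had 1.07 to 1.31 times the count of the lowest in the same library, and among the pair of form 1 the factor was 1.09 to 1.26, with RNA18SN1 above RNA18SN5 in every library. In HEK WT CN, for example, RNA18SN3 had 2816586, 2748735 and 3718546 counts in replicates 1, 2 and 3, and the identical RNA18SN4 had a share that was lower in each of these libraries. These differences were wider than the counting error of a share and had the same sign in most libraries, and their cause was not tested.

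The 28S copies had nearly equal shares. RNA28SN3 had 21.3% ± 0.405 (SD, n = 12), RNA28SN4 21.1% ± 0.529, RNA28SN5 20.01% ± 0.411, RNA28SN2 19.0% ± 0.316 and RNA28SN1 18.6% ± 0.572. The highest 28S copy had 1.09 to 1.23 times the count of the lowest in the same library. RNA28SN3 and RNA28SN4 were each the highest in 6 libraries, and RNA28SN1 was the lowest in 8 and RNA28SN2 in 4, so the order within these pairs changed between libraries. It was steadier within some groups, as in HEK WT CN, where RNA28SN1 had 18.02% ± 0.0878 and RNA28SN2 18.8% ± 0.136 (SD, n = 3). The copies at the top, RNA28SN3 and RNA28SN4, have the most stretches of 75 bases that no other of the 5 copies holds. The order differs for stretches found at a single place in the genome sequences that hold the copies. These number 263 in RNA28SN3, 169 in RNA28SN2 and 71 in RNA28SN4. RNA28SN5, which has 0 of either kind, stood above RNA28SN2.

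**Figure D2:**
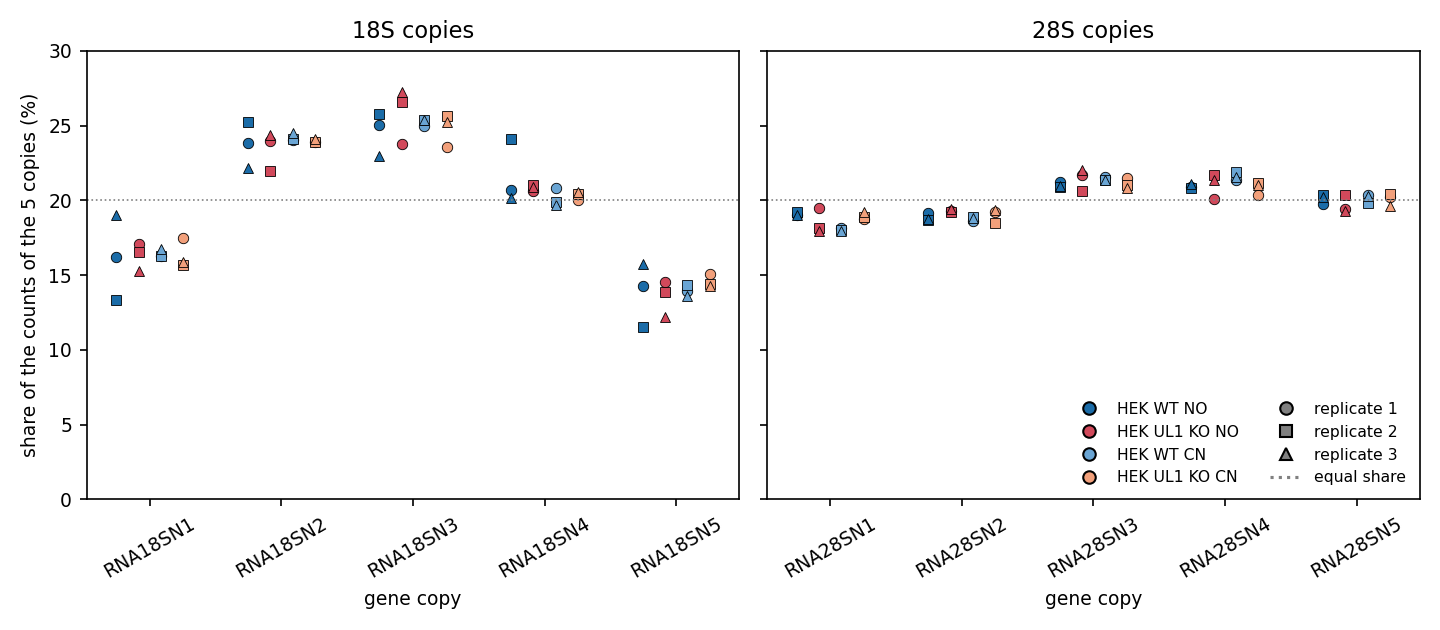
Share of the counts of the 5 copies of a class (vertical axis, %) for each copy of 18S (left) and 28S (right) in all 12 libraries; colours are the 4 groups, shapes the replicates, and the dotted line is an equal share. The 18S shares run from 11.5% for RNA18SN5 to 27.3% for RNA18SN3, and the 28S shares from 17.9 to 22.04%.

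No difference in the share of a copy between fractions or genotypes passed its test. Between NO and CN, 0 of 10 copies passed an adjusted p of 0.05 (exact two-sided permutation test within genotypes, adjusted over the 10 comparisons). The smallest p was 0.065, unadjusted, for RNA18SN4, whose share was 1.01 percentage points higher in NO, and the adjusted p was 0.621 or more for every copy. Between HEK UL1 KO and HEK WT, 0 of 10 passed either, and the smallest unadjusted p was 0.075 for RNA28SN2, with 0.326 points more in HEK UL1 KO (adjusted p = 0.75, exact permutation test within fractions). The shares of the 18S copies varied most in HEK WT NO, where RNA18SN1 had 13.3 to 19.0% of the 18S counts against 16.3 to 16.8% in HEK WT CN. Leaving out replicate 3 of HEK WT in either fraction gave 0 copies in both comparisons as well.

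Per base, 18S was counted more often than 28S in every library. Each copy of 18S had 6015 to 19123 CPM (counts scaled to a common library total, here without TMM) per kilobase, and each copy of 28S had 3108 to 5436, so that the lowest 18S value lay above the highest 28S value. The summed 18S counts per base were 1.82 to 3.50 times those of 28S. The mitochondrial pair RNR1 and RNR2, the 12S and 16S rRNA of the mitochondrial ribosome, had a count ratio of 0.374 to 0.507. That ratio is not per base and is not on the scale of the values above. The NO and CN libraries overlapped in it, at 0.374 to 0.477 and 0.416 to 0.507.

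The 5 copies of 18S together took a smaller share of all counts in NO than in CN. In NO, they had 10.5, 10.3 and 7.15% of the counts in replicates 1, 2 and 3 of HEK WT and 8.79, 10.2 and 9.83% in HEK UL1 KO. In CN, they had 13.5, 13.5 and 14.1% in HEK WT and 12.1, 13.5 and 12.6% in HEK UL1 KO. Every NO library lay below every CN library, and the means differed by -3.77 percentage points (exact two-sided permutation test within genotypes, p = 0.005, the smallest that 400 arrangements can give; adjusted over 6 such comparisons, p = 0.03). Within each genotype the exact p was 0.1, the smallest possible with 3 libraries against 3. Without replicate 3 of HEK WT NO, the lowest library, the difference was -3.23 points. The mitochondrial rRNAs RNR1 and RNR2 moved the other way and took 7.91 to 14.9% of all counts in NO and 2.03 to 3.66% in CN. With both left out of the total, 18S still had a smaller share in NO, with a difference of -2.997 points (exact permutation test, p = 0.005).

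For 28S, the shares of the fractions overlapped. In NO, the 5 copies had 11.04, 9.90 and 10.7% of all counts in HEK WT and 12.1, 10.5 and 8.78% in HEK UL1 KO, and in CN they had 10.96, 10.5 and 11.7% in HEK WT and 12.8, 11.3 and 12.4% in HEK UL1 KO. The difference of NO from CN was -1.10 points (exact permutation test, p = 0.085; adjusted p = 0.255). It depended on the total that was used. Without the 5.8S entries and the 45S entries, which cover 18S and 28S as well, it was -3.01 points with an exact permutation p of 0.01. Without RNR1 and RNR2 in the total it was -0.182 points (exact permutation p = 0.795), and in HEK WT 28S was then the higher in NO, at 11.97% ± 0.330 against 11.3% ± 0.555 in CN (SD, n = 3 each). Between the genotypes, the libraries overlapped in these shares for 18S and 28S in both fractions (adjusted p of 0.3 or more, exact permutation tests). With 3 libraries against 3, the exact p cannot go below 0.1. In CN, the differences were -0.932 points for 18S (SD of 0.344 in HEK WT and 0.698 in HEK UL1 KO) and 1.14 for 28S (SD of 0.618 and 0.772). The comparisons of shares of all counts were chosen after the values had been seen. In such bulk fractions, fewer cells or nucleoli and less RNA in each cannot be told apart.

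**Figure D3:**
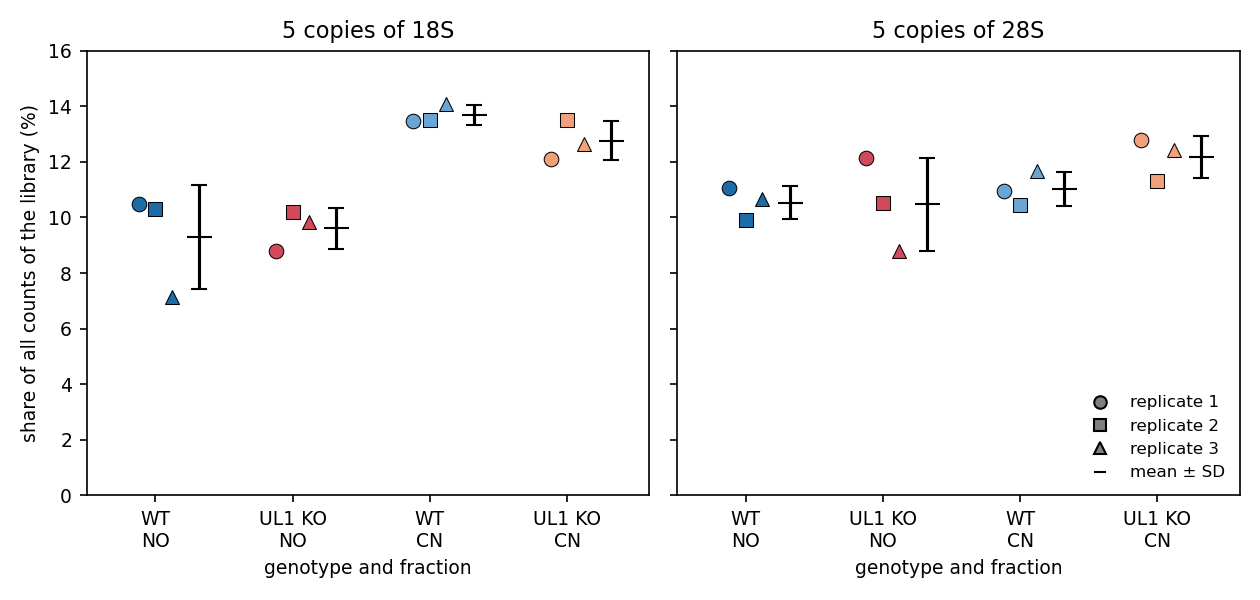
Share of all counts of a library (vertical axis, %) taken by the 5 copies of 18S (left) and of 28S (right) in each of the 4 groups; points are libraries, shapes are replicates, and bars are the mean ± SD (n = 3). For 18S, the 6 NO libraries (7.15 to 10.5%) lie below the 6 CN libraries (12.1 to 14.1%), and for 28S they overlap.

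The ratio of 18S to 28S counts does not depend on how libraries are scaled. In CN, it was 1.23, 1.29 and 1.21 in replicates 1, 2 and 3 of HEK WT and 0.947, 1.19 and 1.02 in HEK UL1 KO. Every HEK UL1 KO library was below every HEK WT library, although the highest, at 1.19, was close to the lowest of HEK WT. The log2 difference was -0.24 (standard error 0.103, exact two-sided permutation test, p = 0.1, the smallest that 3 against 3 allow), a mean ratio of 1.05 ± 0.127 against 1.24 ± 0.0449 (SD, n = 3 each). Adjusted over the 4 ratio comparisons, p was 0.2.

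In NO, the ratio was 0.948, 1.04 and 0.671 in HEK WT and 0.725, 0.970 and 1.12 in HEK UL1 KO. The genotypes overlapped, with a log2 difference of 0.08 (standard error 0.267, exact permutation p = 0.6, adjusted p = 0.6). The sign rested on single libraries, since the difference was -0.11 without replicate 3 of HEK WT and -0.06 without replicate 3 of HEK UL1 KO. The genotype effect in NO minus that in CN was 0.33 (standard error 0.286, exact permutation p = 0.265, adjusted p = 0.353), so a difference between the fractions in this effect was not shown.

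Between the fractions, the ratio was 0.912 ± 0.177 in NO and 1.15 ± 0.134 in CN (SD, n = 6 each). The log2 difference was -0.35 (standard error 0.143, exact two-sided permutation test within genotypes, p = 0.035), and adjusted over the 4 comparisons p was 0.14. Within HEK WT, all NO libraries were below all CN libraries, with a log2 difference of -0.51 (exact permutation p = 0.1, the smallest possible). Within HEK UL1 KO, the libraries overlapped, with a log2 difference of -0.18 (exact permutation p = 0.5). Without replicate 3 of HEK WT NO, the difference over both genotypes was -0.25 with an unadjusted exact p of 0.055, and the median over the copies in place of their sum gave -0.27 with p = 0.145.

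**Figure D4:**
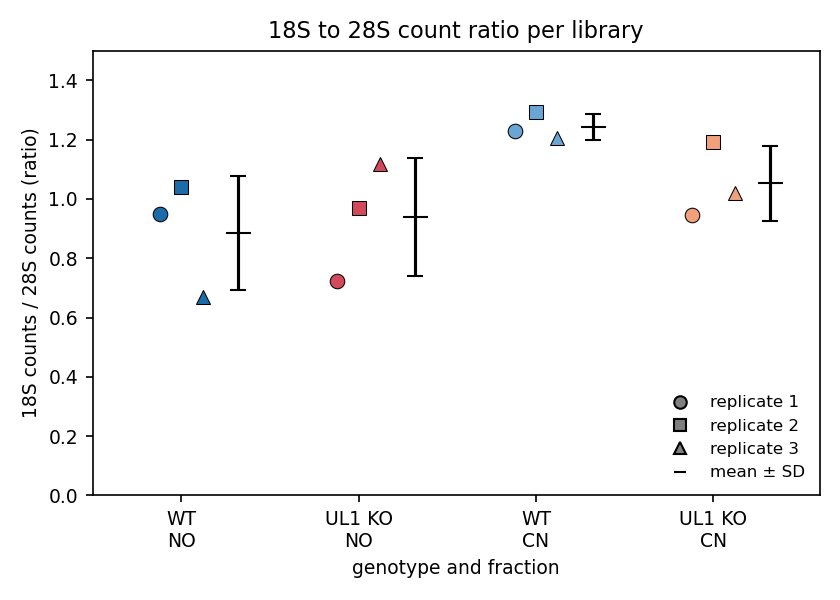
Ratio of the summed counts of the 5 copies of 18S to those of the 5 copies of 28S (vertical axis, no unit) in each of the 12 libraries by genotype and fraction; shapes are replicates and bars the mean ± SD (n = 3). The HEK WT CN libraries are close together at 1.21 to 1.29, and the NO libraries are spread from 0.671 to 1.12 in both genotypes.

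Each copy was also tested as a gene among all others in the quasi-likelihood fit of edgeR, with TMM scaling. In NO, all 10 copies had a negative log2 fold change in HEK UL1 KO against HEK WT, and 0 of 10 passed an adjusted p of 0.05 in a comparison in which 0.939% of all 34836 genes tested were called. The values ran from -0.67 to -0.50 for 18S and from -0.63 to -0.55 for 28S, with standard errors of 0.702 to 0.783 and adjusted p of 0.669 to 0.746. At an unadjusted p under 0.05, edgeR called 0 as well. DESeq2 called 0 of 10 with adjustment, where it called 4.39% of all genes. Without adjustment, it called 3 of 5 copies of 28S and 0 of 5 of 18S. The copies of 1 class share their reads, and the share of all genes under the unadjusted threshold was not computed. The level of RNA18SN3, in CPM after TMM, was 37986, 42694 and 11777 in replicates 1, 2 and 3 of HEK WT and 15632, 24941 and 23300 in HEK UL1 KO. That of RNA28SN3 was 33927, 33260 and 15997 in HEK WT and 19698, 19964 and 16832 in HEK UL1 KO. In both, replicate 3 of HEK WT was far below the other replicates and within or under the HEK UL1 KO range. No copy had all HEK UL1 KO libraries below all HEK WT libraries in NO, where 9.17% of all genes did. Without replicate 3 of HEK WT, the log2 fold changes were -1.08 to -0.83 for 18S and -0.92 to -0.85 for 28S, with adjusted p of 0.124 to 0.212, still above 0.05.

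The sign in NO depended on the scaling. With total counts it was positive for 4 of 5 copies of 18S and 2 of 5 of 28S (-0.04 to 0.11 over all 10), while the median of all genes moved to 0.40, so that the copies lay at -0.44 to -0.29 relative to that median. With SNORD3A as the only reference, all 10 were positive, at 0.21 to 0.36, and the median of all genes moved to 0.83. SNORD3A was itself at 10676 ± 867 CPM (SD, n = 3) in HEK WT NO and 6116 ± 1389 in HEK UL1 KO NO.

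In CN, the fold changes of the 18S copies lay below those of the 28S copies. The log2 fold changes of 18S in HEK UL1 KO ran from -0.36 for RNA18SN3 to -0.27 for RNA18SN5 (standard errors 0.202 to 0.230, adjusted p of 0.223 to 0.316), and those of 28S from -0.15 for RNA28SN4 to -0.02 for RNA28SN1 (adjusted p of 0.615 to 0.943). With edgeR, 0 of 10 copies passed an adjusted p of 0.05, and 0 an unadjusted one, where 37.9% of all 27234 genes tested were called. DESeq2 called 4 of 5 copies of 18S, with log2 fold changes of -0.44 to -0.40 and the exception of RNA18SN5. It called 0 of 5 of 28S, where it called 28.7% of all genes and 5760 of 29838 as lower. All 5 copies of 18S, and 0 of 28S, had every HEK UL1 KO library below every HEK WT library, which was so for 28.1% of all genes. The copies of 1 class share their reads, so that they are not 5 separate observations.

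The levels behind this were even in HEK UL1 KO and uneven in HEK WT. RNA18SN3 was at 33424, 32853 and 46986 CPM in HEK WT CN and at 26767, 32176 and 29252 in HEK UL1 KO CN. RNA28SN3 was at 23443, 21392 and 32798 in HEK WT CN and at 25779, 22142 and 23691 in HEK UL1 KO CN. In both, replicate 3 of HEK WT was the highest library. Without it, the 18S copies had log2 fold changes of -0.13 to -0.06 (adjusted p of 0.519 to 0.756), and the 28S copies turned positive, at 0.10 to 0.23. With GAPDH as the only reference, 5 of 5 copies of 18S and 0 of 5 of 28S were called lower, at -0.69 to -0.60 and -0.48 to -0.35, where 33.3% of all genes were called lower and the median of all genes moved to -0.31. GAPDH was itself at 42.0 ± 6.04 CPM (SD, n = 3) in HEK WT CN and 53.2 ± 4.07 in HEK UL1 KO CN, a rise of 0.34 on the log2 scale (adjusted p = 0.0275, edgeR). With total counts the median of all genes moved to 0.24, and the 28S copies were at 0.09 to 0.22.

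The genotype effect in NO minus that in CN ran from -0.19 to 0.01 for the 18S copies and from -0.44 to -0.26 for the 28S copies. With edgeR, 0 of 10 copies passed an adjusted p of 0.05 or an unadjusted one in this interaction test, where it called 0.114% of all genes, and DESeq2 called 0, where it called 0.259%.

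Between the fractions, all 10 copies had negative log2 fold changes in NO against CN in both genotypes, and 2 passed the test in each. In HEK WT, RNA18SN1 and RNA18SN5 fell, with log2 fold changes of -1.14 and -1.10 (standard errors 0.477 and 0.469, adjusted p = 0.0440 and 0.0464 from edgeR's quasi-likelihood test). They were 2 of 10 copies, where 66.0% of all genes were called and 10363 of 37806 were called lower. The other copies of 18S were at -1.05 to -0.90 and those of 28S at -0.67 to -0.54, with adjusted p of 0.0900 or more. In HEK UL1 KO, the same pair passed, RNA18SN1 at -1.13 and RNA18SN5 at -1.24 (adjusted p = 0.0446 and 0.0281, edgeR). In that genotype, 66.7% of all genes were called, and 10739 of 37806 were called lower. There, the other copies of 18S were at -1.16 to -1.05 and those of 28S at -0.98 to -0.92. Without replicate 3 of HEK WT NO, the values in HEK WT shrank to -0.85 to -0.52 for 18S and -0.42 to -0.28 for 28S. With total counts they were -0.61 to -0.44 and -0.11 to 0.014 in HEK WT, where 1 copy of 28S was positive, and -0.52 to -0.35 and -0.25 to -0.20 in HEK UL1 KO, while the medians of all genes moved from 0.26 and 0.25 to 0.91 and 0.97. With at least 10 counts in every library they were -0.70 to -0.49 and -0.22 to -0.10 in HEK WT and -0.72 to -0.54 and -0.45 to -0.40 in HEK UL1 KO, with medians of all genes of -0.03 and -0.01. RNA18SN1 and RNA18SN5 are the copies of form 1, and whether they changed more than the copies of form 2 was not tested apart from the shares above. The comparisons in the 2 genotypes come from 1 fit and share its estimate of the spread. These calls were close to the threshold. In HEK WT, leaving out any 1 library but replicate 1 of HEK WT NO gave 0 or 1 called copies. In HEK UL1 KO, leaving out 1 library gave 0 to 2, except without replicate 3 of HEK WT NO. That omission gave 10 of 10, where 71.2% of all genes were called and 12088 of 39330 were called lower. DESeq2 called 10 of 10 copies in both genotypes, and 48.6% of all genes it tested in HEK WT and 48.3% in HEK UL1 KO. It called 10524 of 50035 genes lower in HEK WT and 10930 of 48888 in HEK UL1 KO.

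**Figure D5:**
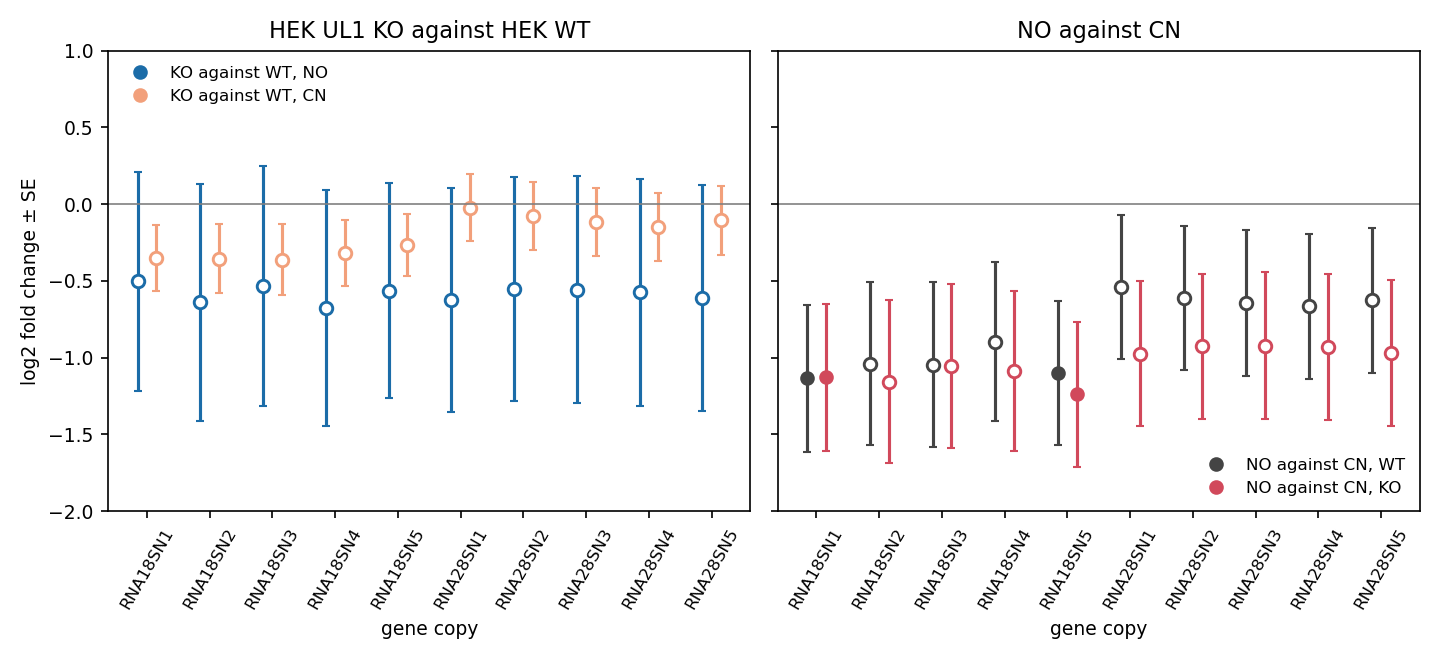
Log2 fold change ± SE (vertical axis) of each copy in HEK UL1 KO against HEK WT (left; NO and CN) and in NO against CN (right; HEK WT and HEK UL1 KO), from edgeR; filled points have an adjusted p under 0.05. On the left, the NO and CN values of 28S lie further apart than those of 18S, and 0 points are filled; on the right, RNA18SN1 and RNA18SN5 are filled in both genotypes.

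Other entries are made from the same precursor. The 7 entries of 45S, which cover the mature parts as well and cannot be told apart from them in these counts, were at -0.64 to -0.55 (log2 fold change in HEK UL1 KO) in NO. In CN they were at -0.26 to -0.17. In either fraction edgeR called 0 of 7, beside 37.9% of all genes in CN and 0.939% in NO. The 7 entries of 5.8S, the short RNA that pairs with 28S in the large subunit, were called lower in CN, 7 of 7, at -1.67 to -1.21 (adjusted p of 3.96e-05 to 0.000357, edgeR), where 22.3% of all genes fell. In NO these entries were at -0.87 to -0.67 with 0 of 7 called. The tables also list 2 more entries of 18S and 2 of 28S under names with a suffix. RNA18SN3_1 had 0.852 to 1.14 times the count of RNA18SN3 in 11 libraries and 1.49 times in replicate 3 of HEK WT NO. RNA18SN1_1 had 0.867 to 0.948 times the count of RNA18SN1.

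The genes that process 18S and 28S were followed from lists. Of 20 genes of 18S and small subunit maturation, 10 fell and 0 rose in HEK UL1 KO in CN, where 22.3% of all genes tested fell and 15.6% rose. The median log2 fold change of the list was -0.27 against 0.04 over all genes. In NO, 0 of 20 were called, where 0.939% of all genes were, with a median of -0.46 against 0.004 over all genes. LTV1, a factor of late small subunit maturation, fell by 0.60 on the log2 scale, DIMT1, which dimethylates adenosines near the 3′ end of 18S, by 1.04, and PNO1, a partner of the nuclease that trims the 18S end, by 0.54 in CN (adjusted p = 7.21e-05, 0.000117 and 0.00177, edgeR). In NO, they were at -0.85, -1.23 and -0.66, none past the threshold.

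Of 28 genes of 28S and large subunit maturation, 12 fell and 2 rose in CN, beside the same 22.3% and 15.6% of all genes, with a median of -0.28. In NO, 0 were called, where 0.939% of all genes were, with a median of -0.44 against 0.004 over all genes. GTPBP4, a GTPase of large subunit assembly, fell by 0.71, NSA2, a factor of the early large subunit, by 0.64 and SDAD1, needed for its maturation and export, by 0.51 on the log2 scale (adjusted p = 2.82e-05, 8.57e-05 and 0.000335, edgeR). BOP1, which acts with PES1 and WDR12 in 28S processing, rose by 0.93 (adjusted p = 0.00234), whereas PES1 and WDR12 fell by 0.53 and 0.29. ZCCHC4, which methylates an adenosine of 28S, rose by 0.40 (adjusted p = 0.0271, edgeR).

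Of 17 genes of RNA polymerase I and its initiation and termination factors, 9 fell and 1 rose in CN, with a median of -0.29. All genes again had 22.3% and 15.6%. In NO, 1 fell, where 200 of 34836 genes did, with a median of -0.54 against 0.004 over all genes. POLR1E, a subunit of the polymerase, fell by 1.33 in NO and by 0.81 in CN (adjusted p = 0.0412 and 0.000365, edgeR). TAF1A and TAF1D, parts of the promoter selectivity factor SL1, fell by 1.02 and 0.58 in CN, and the subunit POLR1C, which RNA polymerase III also uses, rose by 0.41 (adjusted p = 0.00298). The mitochondrial rRNAs RNR1 and RNR2 were at 0.12 and 0.18 in CN and -0.79 and -0.88 in NO. In either, 0 of 2 were called, beside 37.9% of all genes in CN and 0.939% in NO.

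The calls on these lists depended on the scaling and on 1 library. With total counts in CN, 1 of the 20 genes for 18S fell. Of the 28 for 28S, 1 fell and 1 rose, and of the 17 of RNA polymerase I, 2 fell and 1 rose. In this comparison 19.9% of all genes were called, and of all 27234 genes 1730 fell and 3700 rose. The medians of the lists, in this order, were then -0.07, -0.07 and -0.08 and lay at -0.31, -0.31 and -0.32 relative to the median of all genes, against -0.31, -0.31 and -0.33 with TMM. Of the genes named, DIMT1, GTPBP4, BOP1, TAF1A, POLR1E and POLR1C passed with total counts, and LTV1 (adjusted p = 0.0713), PNO1 (0.181), NSA2 (0.0654), SDAD1 (0.188), ZCCHC4 (0.0619), PES1 (0.209), WDR12 (0.688) and TAF1D (0.0969) did not (edgeR). With GAPDH as the reference, ZCCHC4 and POLR1C were at 0.04 and 0.06 and no longer passed. In NO, the medians of the 3 lists turned positive with total counts (0.09, 0.06 and 0.01) and with SNORD3A as the reference (0.45, 0.42 and 0.39), as the median of all genes moved to 0.40 and 0.83. Relative to that median, they lay at -0.39 to -0.31 and -0.44 to -0.38, against -0.55 to -0.44 with TMM. Without replicate 3 of HEK WT NO, 12 of 20, 15 of 28 and 11 of 17 genes fell in NO, with medians of -0.73, -0.71 and -0.72, where 15.3% of all genes did. Without replicate 3 of HEK WT CN, 9 of 20, 9 of 28 and 6 of 17 genes fell in CN and 2, 3 and 1 rose, with medians of -0.20, -0.13 and -0.23, where 18.8% of all genes fell. The call of POLR1E in NO was lost with total counts (-0.78, adjusted p = 0.729, edgeR) and on leaving out any library but replicate 3 of HEK WT NO. It was also lost with SNORD3A as the reference, with at least 10 counts in every library and with a replicate block. The 5.8S entries were called lower in CN under every alternative run, 7 of 7 in all but the fit of all 12 libraries, which called 6 of 7.

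The genes most alike in pattern to the summed 18S copies over the 12 libraries, by Pearson correlation of log2 CPM among 17965 genes with a mean of at least 50 counts, were SF3A3 (r = 0.989), RPL26L1 (0.986) and AP3D1 (0.986). Those most alike to 28S were LOC110467529 (0.991), LOC100507412 (0.988) and ALYREF (0.982). Within NO alone, r was 0.975 for SF3A3 with 18S and 0.989 for LOC110467529 with 28S, and within CN alone 0.960 and 0.957. Entries named as rRNA were left out of this search by name only, and whether the genes found overlap rRNA sequence was not checked. All points share the libraries and their scaling factors, and the values are given as a description.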

How the data were processed

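Total RNA of the 12 fractions was made into libraries with the CORALL kit without rRNA depletion and read in single reads of 75 bases. Per the study's methods and the submitters' processing notes, the authors trimmed with cutadapt 3.7, aligned to GRCh38 with STAR 2.7.8 with up to 20 alignments per read, and counted genes with featureCounts; the counting of reads with several matches, the strand setting and the annotation version are not given in the sources used here. The deposited values are raw counts per gene, 1 table per fraction. No stretch of 75 bases in 18S is found at a single place in the genome, so counts of these entries include reads that match several.

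The fits used R 4.3.3 and edgeR 4.0.16 (quasi-likelihood test, filterByExpr with a minimum count of 10, TMM, Benjamini-Hochberg over all genes, adjusted p under 0.05), with DESeq2 1.42.0 as an alternative, and were tested on simulated data. All 10 copies passed the filter. Ratios and shares were compared with exact permutation tests (Python 3.11.15, scipy 1.17.1), and identity was computed with Biopython 1.88. Intervals are Wilson's at 95% and cover counting error only. Replicates of a group differed by at least 17.1 in chi-square per gene, so none was merged. Alternatives were other scalings, filters and tools, a replicate block and leaving out each library; those for shares of all counts and for the lists were chosen after seeing the data. The members and lists were chosen with earlier results of these data known; all members are named, and from each list the 3 higher and 3 lower genes with the smallest adjusted p in CN, with PES1, WDR12 and the values in NO added after they were seen.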

Additional observations from a re-analysis of the deposited data

How the results depend on the processing

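Each value was recomputed under the alternatives. The 18S to 28S ratio of HEK UL1 KO against HEK WT ranged from -0.11 to 0.26 (log2) in NO and from -0.34 to -0.17 in CN with 1 library left out, and that of NO against CN from -0.42 to -0.25, where 7 of the 12 omissions took the exact p to 0.055 or more. The ratio of NO against CN was -0.33 (p = 0.12) from 1 entry of each class, -0.27 (p = 0.145) from the median over the copies, and -0.35 (p = 0.0625, exact sign-flip permutation test) with a replicate block. The same-numbered libraries did not deviate in the same direction from their group means (r of -0.53 to -0.06 across genes). Whether the same number marks the same preparation is not given in the sources used here, and these correlations cannot decide it. The number of copies called between NO and CN, 2 in each genotype, became 10 and 10 with DESeq2. With total counts it was 4 in HEK WT and 1 in HEK UL1 KO, where 17678 and 16976 of all 37806 genes were called, 1460 and 480 as lower. With at least 10 counts in every library it was 0 and 0, where 9879 and 8886 of 20908 genes were called, 4463 and 3312 as lower. The replicate block gave 0 and 0, where 22851 and 23129 of 37806 genes were called, 9415 and 9662 as lower. In HEK WT it was 0 without a filter, where 26257 of 59261 genes were called, 9867 as lower. It was also 0 in HEK WT with TMM computed without rRNA entries, where 24627 of 37806 genes were called, 10488 as lower. With 1 library left out it ranged from 0 to 2 in HEK WT and from 0 to 10 in HEK UL1 KO. The genes called then numbered 18225 to 28024 in HEK WT and 19840 to 28015 in HEK UL1 KO. Those called lower numbered 8151 to 11842 in HEK WT and 8583 to 12307 in HEK UL1 KO. The 10 was reached without replicate 3 of HEK WT NO. The number called in HEK UL1 KO in CN, 0, became 4 with DESeq2 and 5 with GAPDH as the reference, and in NO it was 0 under every alternative run. The share of all counts on 28S in NO against CN, -1.10 points, became -3.01 (exact permutation p = 0.01) without the 45S and 5.8S entries in the total, was -0.182 (p = 0.795) without the mitochondrial rRNAs in the total, and ranged from -1.51 to -0.68 with 1 library left out, passing an unadjusted exact p of 0.05 without replicate 1 of HEK UL1 KO NO. The log2 fold changes in NO changed sign with total counts for RNA18SN1 (0.082), RNA18SN2 (0.016), RNA18SN3 (0.11), RNA18SN5 (0.032), RNA28SN2 (0.023) and RNA28SN3 (0.020). With SNORD3A as the reference they changed sign for all 10, at 0.36, 0.26, 0.36, 0.21 and 0.29 for RNA18SN1 to RNA18SN5 and 0.22, 0.29, 0.30, 0.27 and 0.23 for RNA28SN1 to RNA28SN5. Both scalings also moved the median of all genes, to 0.40 and 0.83, and relative to it all 10 copies stayed negative, at -0.44 to -0.29 with total counts and -0.62 to -0.47 with SNORD3A, against -0.68 to -0.51 with TMM. In CN, total counts gave 0.22, 0.16, 0.12, 0.089 and 0.14 for RNA28SN1 to RNA28SN5, and at least 10 counts in every library gave 0.057 for RNA28SN1 and 0.0022 for RNA28SN2. With 1 library left out, the values in CN ranged from -0.15 to 0.23 for RNA28SN1, from -0.20 to 0.18 for RNA28SN2, from -0.24 to 0.14 for RNA28SN3, from -0.27 to 0.10 for RNA28SN4 and from -0.24 to 0.16 for RNA28SN5. The causes were not tested.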
